A study of Mus musculus with 18 samples.

Results

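The mouse linker histone H1 genes in nascent RNA are *Hist1h1a*, *Hist1h1b*, *Hist1h1c*, *Hist1h1d*, *Hist1h1e*, *H1f0* and *H1fx*. They were found by their symbols in GENCODE M21 through the Ensembl identifiers of the deposited counts, which gave 7 genes of the 54446 in the files. The 5 Hist1h1 genes form the replication-dependent class, and the other 2, *H1f0* and *H1fx*, make polyadenylated mRNA. The study labelled mouse embryonic stem (mES) cells with 1 mM 5-ethynyl uridine (EU), an analogue that cells build into new RNA, for 10, 20 or 40 min, then captured the EU-labelled RNA through biotin on streptavidin beads and sequenced it. Wild-type (WT) cells were compared with *Tet2*-/- cells (*Tet2*-KO), which by their label lack the TET2 dioxygenase. Each combination of genotype and EU time had 3 dishes, which gave 18 libraries. All cells grew in serum with LIF, CHIR99021 and PD0325901 and were moved from feeder cells to gelatin beforehand. Each genotype is 1 line received from another laboratory, so the dishes repeat that line and give no second knockout clone, and their spread may be technical. GEO's tissue label reads embryos, whereas the cells are a cultured line.

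Linker histones bind the nucleosome where DNA enters and leaves it and help chromatin to fold. Replication-dependent H1 genes lie with the core histone genes in the large histone cluster, are transcribed mainly in S phase, and have no introns. Their mRNAs usually end at a conserved stem-loop that is bound by SLBP and cut with the help of the U7 snRNP, in place of a poly(A) tail. *H1f0* encodes the replacement subtype that accumulates as cells stop dividing and differentiate, and *H1fx* encodes a divergent, widely expressed subtype.

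The promoters of the classes differ in their letters, so the 130 bases before the RefSeq start site are shown for 4 replication-dependent genes and for *H1f0*, from RefSeq on GRCm38.p6 (the mm10 build). Capitals mark 3 motifs searched on both strands over 250 bases. They are the AC box AAACACA, described for H1 promoters, the CCAAT box CCAAT, and the TATA box TATAAA, none of which overlaps another here.
Hist1h1a: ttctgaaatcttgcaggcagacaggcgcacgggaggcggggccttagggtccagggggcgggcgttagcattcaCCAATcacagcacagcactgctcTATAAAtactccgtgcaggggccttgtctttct
Hist1h1b: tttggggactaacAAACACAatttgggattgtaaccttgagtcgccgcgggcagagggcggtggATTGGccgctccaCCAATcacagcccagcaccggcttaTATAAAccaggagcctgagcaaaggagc
Hist1h1c: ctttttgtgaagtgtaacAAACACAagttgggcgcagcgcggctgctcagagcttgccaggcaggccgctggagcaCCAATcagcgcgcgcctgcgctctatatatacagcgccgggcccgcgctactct
Hist1h1e: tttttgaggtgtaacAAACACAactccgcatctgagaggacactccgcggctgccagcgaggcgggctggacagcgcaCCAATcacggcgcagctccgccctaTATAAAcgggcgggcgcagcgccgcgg
H1f0: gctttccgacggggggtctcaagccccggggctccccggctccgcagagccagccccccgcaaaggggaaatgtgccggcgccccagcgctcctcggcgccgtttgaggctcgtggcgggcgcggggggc

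These windows are chr13:23763538-23763667 (+), chr13:21780626-21780755 (-), chr13:23738677-23738806 (+), chr13:23622559-23622688 (-) and chr15:79028082-79028211 (+), each read 5′ to 3′ on the strand of its gene. *Hist1h1d* and *H1fx* are not printed because the GENCODE exon already covers that window. The AC box was present in 4 of the 5 replication-dependent promoters, with its first base 117 bases upstream of the start in *Hist1h1b*, 112 in *Hist1h1c*, 122 in *Hist1h1d* and 115 in *Hist1h1e*, and these letters were not in the window of *Hist1h1a*, *H1f0* or *H1fx*. Of 32851 mouse promoters of the same length, 6.25% hold it. A CCAAT box lay 51 to 56 bases upstream in each of the 5 replication-dependent promoters, with 2 more in *Hist1h1b* 66 and 168 bases upstream, whereas 33.8% of the promoters hold one. TATAAA was found in 4 of the 5, 26 to 33 bases upstream of the start in *Hist1h1a*, *Hist1h1b*, *Hist1h1d* and *Hist1h1e*, with 2 more copies farther upstream in *Hist1h1d*, and 12.4% of the promoters hold it. The letters of these 3 motifs were not in the windows of *H1f0* and *H1fx*. G or C made up 47.6% to 54.8% of the 250 bases in the replication-dependent genes, 74.4% in *H1f0* and 75.2% in *H1fx*. A match describes the letters of a window and does not show that a factor binds there.

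The 3′ ends of the transcript models divide the classes only in part. The histone stem-loop, searched on the sense strand as 6 paired bases around a 4-base loop by the consensus of the family, was found in the transcript models of *Hist1h1c*, *Hist1h1d* and *Hist1h1e* with the same 16 letters, in which capitals mark the paired stem.
Hist1h1c, Hist1h1d and Hist1h1e: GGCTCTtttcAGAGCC
It lies at chr13:23739512-23739527 in *Hist1h1c*, chr13:23555787-23555802 in *Hist1h1d* and chr13:23621782-23621797 in *Hist1h1e*. The model of *Hist1h1a* ends with the first 15 of the 16 bases. In that of *Hist1h1b* no stem-loop was found, and the bases past its end were not searched. No stem-loop was found in *H1f0* or *H1fx*, whose models hold AATAAA, the polyadenylation signal, 22 and 21 bases before their end. Across GENCODE M21, 0.388% of 55450 genes and 42 of 61 replication-dependent core histone genes (68.9%) held the stem-loop. In 3 of the 5 replication-dependent models the annotated exon runs on past it, by 840 bases in *Hist1h1c*, where AATAAA lies 26 bases before the end, by 4884 in *Hist1h1d* and by 1153 in *Hist1h1e*. A read count over these genes therefore sums RNA before and after the stem-loop, and the deposited counts do not separate them.

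Each member is 1 exon with no intron in GENCODE M21. On mm10 *Hist1h1a* spans chr13:23763666-23764406, *Hist1h1b* chr13:21779883-21780625, *Hist1h1c* chr13:23738808-23740367, *Hist1h1d* chr13:23553262-23560686 and *Hist1h1e* chr13:23620629-23622558, in the histone cluster of chromosome 13. *H1f0* lies at chr15:79028450-79030504 and *H1fx* at chr6:87980421-87981637. The exon of *Hist1h1e* shares 450 bases with a long *Hist1h2be* model on the same strand. Of its 50-base words 32.0% occur in models of other genes, and this percent includes the words of that overlap. *H1f0* overlaps the antisense gene *Gm49544* by 163 bases and *H1fx* overlaps the antisense gene *Gm5577* by 213 bases. The library kit keeps strand, but the strand and overlap settings of the counting are not given in the sources used here, so reads of these overlaps are uncertain. *Gm5577* itself had 77 to 159 reads per library beside 40 to 174 for *H1fx*. In *Hist1h1a* and *Hist1h1b*, 0 of the 50-base words recurred in another gene.

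Between 17931614 and 23069143 reads per library fell on genes, and between 44162 and 512186 on the ERCC spike-in RNAs, which were added in proportion to total RNA. A level per ERCC read is therefore relative to total RNA and not to cells, and fewer cells of a kind cannot be told apart from less RNA per cell. *Tet2* kept 9730 to 17092 reads per library. Averaged over EU times, its share of gene reads with the *Tet2*-KO label differed by a log2 fold change of -0.20 ± 0.011 (edgeR adjusted p = 1.42e-16), where 32% of all genes were called lower. Per ERCC read *Tet2* was called higher with that label, by 0.54 on average and by 0.88, 0.25 and 0.48 at 10, 20 and 40 min. Of all genes 80.5% were called higher in that average. A count over the whole gene cannot show the loss of an exon, so genotypes are given here by label. Of the 8 embryonic stem cell markers *Sox2* was listed at 0 in all 18 libraries, and the other 7, *Esrrb* and *Nanog* among them, had reads in each. At 10 min their summed share was 2139 to 2158 counts per 1000000 gene reads (CPM) in WT and 1492 to 1519 with the *Tet2*-KO label. Tests cover the spread between dishes, and the reads were not collapsed to molecules.

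The replication-dependent genes carried most H1 reads. Per kilobase of exon, in CPM, the level over the 18 libraries was 75.7 ± 7.15 (mean ± SD) for *Hist1h1a*, 73.5 ± 9.96 for *Hist1h1b*, 62.6 ± 6.76 for *Hist1h1c*, 23.9 ± 2.72 for *Hist1h1e*, 9.31 ± 0.969 for *Hist1h1d*, 7.04 ± 1.63 for *H1f0* and 3.95 ± 1.16 for *H1fx*. Neighbours at the top of this order were not separated by their spread, with *Hist1h1a* above *Hist1h1b* in 12 of 18 libraries and *Hist1h1b* above *Hist1h1c* in 15. *Hist1h1c* was above *Hist1h1e*, *Hist1h1e* above *Hist1h1d*, and *H1f0* above *H1fx* in each of the 18 libraries. *Hist1h1d* exceeded *H1f0* in 16 of 18 libraries, and *H1f0* had the higher mean in WT at 10 min. The place of *Hist1h1d* depends on its 7425-base model. When the bases from the RefSeq start to the end of the stem-loop were used as the length, an alternative chosen after the data were seen, the mean level per kilobase was 136 for *Hist1h1c*, 89.7 for *Hist1h1d* and 59.5 for *Hist1h1e*. Each of the 5 replication-dependent genes then had a higher mean than *H1f0* and *H1fx*, although these values count reads past the stem-loop as if they lay before it.

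The first comparison asked how much new H1 RNA was labelled in each genotype, relative to the spike-in. *Hist1h1c* had 4.21, 4.19 and 3.72 reads per 1000 ERCC reads in the WT dishes after 10 min of EU, 15.5, 15.5 and 13.2 after 20 min and 24.2, 27.3 and 26.5 after 40 min. With the *Tet2*-KO label it had 9.0, 9.32 and 11.3 after 10 min, 17.3, 25.9 and 19.5 after 20 min and 42.3, 32.1 and 33.5 after 40 min. The labelled *Tet2*-KO dishes of *Hist1h1c* were above WT without overlap after each EU time. *H1f0* had 0.858, 0.961 and 0.90 reads per 1000 ERCC reads in the WT dishes after 10 min of EU, 2.48, 2.57 and 2.06 after 20 min and 2.66, 2.75 and 3.01 after 40 min. Its labelled *Tet2*-KO dishes had 1.4, 1.61 and 1.75 after 10 min, 2.18, 2.68 and 2.52 after 20 min and 5.19, 4.04 and 4.31 after 40 min. For *H1f0* the genotypes did not overlap after 10 and 40 min and overlapped after 20 min, and WT rose little between 20 and 40 min.

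The other members followed the labelling time in the same direction, given as mean ± SD of 3 dishes in reads per 1000 ERCC reads. *Hist1h1d* went from 3.1 ± 0.362 through 11.4 ± 0.274 to 17.6 ± 0.643 over the EU times with the WT label and from 7.22 ± 0.147 through 13.1 ± 1.38 to 24.0 ± 1.9 with the *Tet2*-KO label. *Hist1h1e* went from 1.81 ± 0.0443 through 7.34 ± 0.667 to 12.9 ± 0.583 over the EU times with the WT label and from 4.16 ± 0.311 through 9.45 ± 1.31 to 18.7 ± 2.43 with the *Tet2*-KO label. Like *Hist1h1c*, these genes had their *Tet2*-KO libraries above WT without overlap after each EU time. *Hist1h1a* went from 2.58 ± 0.154 through 9.29 ± 1.13 to 14.6 ± 0.669 over the EU times with the WT label and from 5.44 ± 0.705 through 10.7 ± 1.43 to 20.2 ± 1.55 with the *Tet2*-KO label. *Hist1h1b* went from 2.41 ± 0.246 through 8.63 ± 0.287 to 16.7 ± 1.78 over the EU times with the WT label and from 4.66 ± 0.317 through 10.6 ± 1.63 to 19.9 ± 2.96 with the *Tet2*-KO label. *Hist1h1a* overlapped between genotypes after 20 min, and *Hist1h1b* after 20 and 40 min. *H1fx* went from 0.295 ± 0.111 through 0.791 ± 0.0574 to 1.41 ± 0.147 over the EU times with the WT label and from 0.457 ± 0.0606 through 0.709 ± 0.209 to 1.34 ± 0.432 with the *Tet2*-KO label. The genotypes overlapped in *H1fx* after 10, 20 and 40 min.

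**Figure D1:**
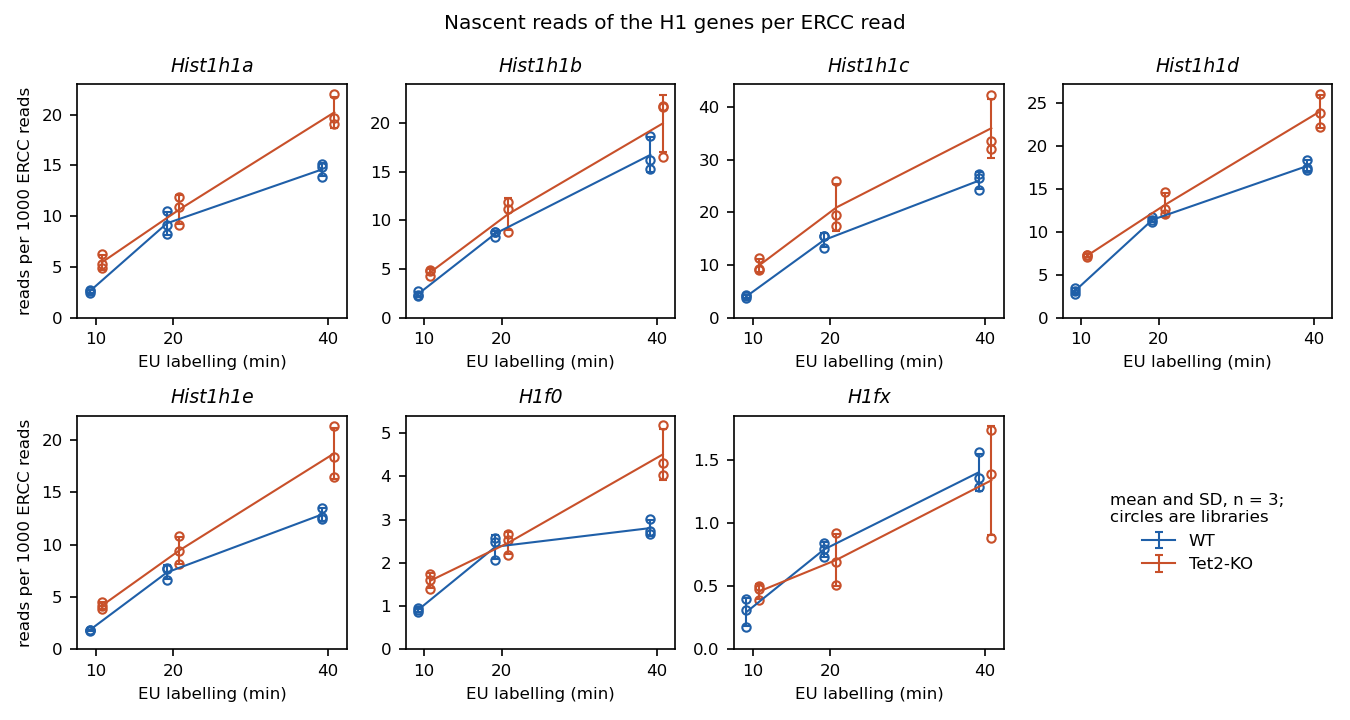
Reads per 1000 ERCC reads of each H1 gene against minutes of EU labelling, for WT (blue) and the labelled *Tet2*-KO (orange), where circles are libraries and lines join the means with their SD (n = 3). The *Hist1h1c* panel separates the genotypes at each time, with 9.0, 9.32 and 11.3 after 10 min for *Tet2*-KO and 4.21, 4.19 and 3.72 for WT, and the *H1fx* panel shows them overlapping at each time.

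Averaged over EU times, 6 of the 7 members were higher per ERCC read with the *Tet2*-KO label (edgeR quasi-likelihood, Benjamini-Hochberg over 19910 genes), and 80.5% of the genes tested were called higher. The members' median log2 fold change was 0.58, below the median of 0.70 over all genes. *Hist1h1c* rose most, by 0.75 ± 0.055 (adjusted p = 3.89e-35), followed by *Hist1h1e* at 0.70 ± 0.059 (adjusted p = 1.48e-27), *Hist1h1d* at 0.62 ± 0.056 (adjusted p = 8.19e-25), *Hist1h1a* at 0.58 ± 0.058 (adjusted p = 4.80e-21), *H1f0* at 0.51 ± 0.079 (adjusted p = 4.83e-10) and *Hist1h1b* at 0.50 ± 0.058 (adjusted p = 3.85e-16), each a log2 fold change ± SE. *H1fx* did not pass the test, with 0.14 ± 0.12 (adjusted p = 0.263) and a 95% interval of -0.09 to 0.37. TMM scaling centres the genes, so that their median was 0.0027 in place of 0.70. On it the directions of *Hist1h1a*, *Hist1h1b*, *Hist1h1d*, *H1f0* and *H1fx* turned, and *H1fx* was called lower. *Hist1h1c* and *Hist1h1e* were at 0.06 and 0.0036, past no threshold.

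By EU time, the members' median was 1.08 at 10 min, 0.20 at 20 min and 0.47 at 40 min, beside 0.96, 0.45 and 0.67 over all genes. At 10 min 7 of 7 members were higher per ERCC read (background 79%), with log2 fold changes from 0.64 for *H1fx* to 1.29 for *Hist1h1c*. Without WT replicate 3 of that time *H1fx* was at 0.37 (adjusted p = 0.0841) and 6 members were called. At 20 min 3 members were higher (background 53.7%), namely *Hist1h1c* with 0.51 ± 0.095 (adjusted p = 7.02e-07), *Hist1h1e* with 0.36 ± 0.10 (adjusted p = 0.00109) and *Hist1h1b* with 0.30 ± 0.10 (adjusted p = 0.00736). That count was 5 without *Tet2*-KO replicate 1 and 1 without *Tet2*-KO replicate 2 of this time. At 40 min 6 members were higher (background 68.2%), with log2 fold changes from 0.25 for *Hist1h1b* to 0.68 for *H1f0*, and *H1fx* did not pass with -0.07 ± 0.21 (adjusted p = 0.785). The 40 min call of *Hist1h1b* was lost without WT replicate 1 (0.23), WT replicate 3 (0.19), *Tet2*-KO replicate 1 (0.19) or *Tet2*-KO replicate 3 (0.19), with edgeR adjusted p of 0.0682 to 0.147.

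The genotype difference per ERCC read shrank from 10 to 40 min in the replication-dependent genes. The test of that change called 5 members lower (background 19.3%), with -0.61 for *Hist1h1a*, -0.70 for *Hist1h1b*, -0.82 for *Hist1h1c*, -0.78 for *Hist1h1d* and -0.66 for *Hist1h1e* on the log2 scale, SEs of 0.13 to 0.15 and edgeR adjusted p of 1.23e-06 to 0.00101. The change was -0.12 ± 0.19 (adjusted p = 0.704) for *H1f0* and -0.70 ± 0.28 (adjusted p = 0.0619) for *H1fx*, neither past the threshold. Over all genes the median change was -0.29, against -0.70 for the members. The change was also taken from 20 to 40 min, an alternative chosen after the data were seen. There edgeR called 0 members lower (0 at an unadjusted p under 0.05) and *H1f0* higher with 0.63. The lower calls were thus lost without the 10 min libraries. For that contrast the share of all genes called was not computed.

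**Figure D2:**
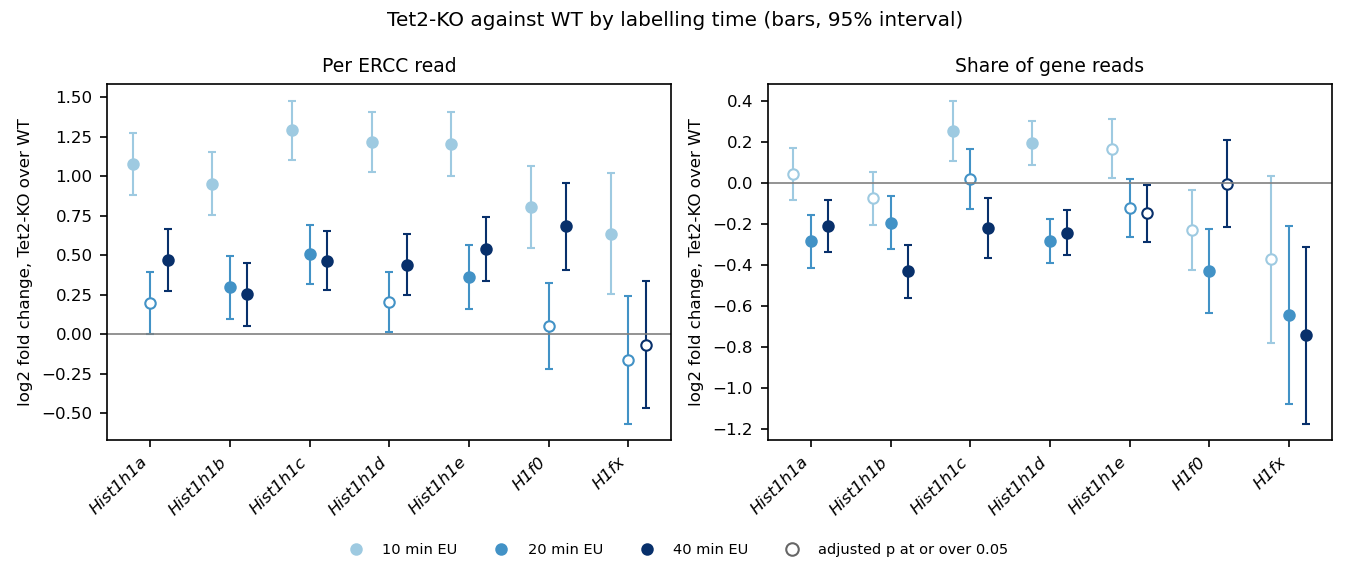
Log2 fold change of the labelled *Tet2*-KO over WT for each H1 gene at 10, 20 and 40 min of EU, per ERCC read (left) and as a share of gene reads (right), with bars for the 95% interval and open circles where edgeR's adjusted p was 0.05 or more. Per ERCC read the 10 min value of *Hist1h1c* is 1.29 and its 40 min value 0.47, and as a share they are 0.25 and -0.22.

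The rise along labelling time was summarized by a least-squares slope with an intercept over the 9 libraries of a genotype, without a test. In reads per 1000 ERCC reads per minute (± SE) the rate of *Hist1h1c* was 0.708 ± 0.0558 for WT and 0.853 ± 0.109 for the labelled *Tet2*-KO, and the rate of *H1f0* was 0.0573 ± 0.0126 and 0.0983 ± 0.00974. The ratio of *Tet2*-KO over WT was 1.29 ± 0.166 for *Hist1h1a*, 1.08 ± 0.132 for *Hist1h1b*, 1.2 ± 0.18 for *Hist1h1c*, 1.21 ± 0.149 for *Hist1h1d*, 1.36 ± 0.157 for *Hist1h1e*, 1.71 ± 0.414 for *H1f0* and 0.824 ± 0.206 for *H1fx*. The ratios of *Hist1h1b* and *H1fx* lay within 1 SE of 1, and without *Tet2*-KO 40 min replicate 3 that of *H1fx* was 1.04. The ratios of the members depend on the EU times used, since from 10 and 20 min alone that of *H1f0* was 0.596 and from 20 and 40 min alone 4.74. For *Hist1h1a* these values were 0.776 and 1.81.

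The second comparison took each member as a share of the gene reads of its library, which removes what the genes have in common. *Hist1h1c* took 90.4, 82.4 and 86.9 CPM in the WT libraries after 10 min of EU, 107, 98.4 and 94.0 after 20 min and 99.5, 105 and 111 after 40 min. With the *Tet2*-KO label it took 93.8, 104 and 112 after 10 min, 90.5, 120.4 and 92.3 after 20 min and 98.6, 87.6 and 84.5 after 40 min. The *Tet2*-KO libraries stood above WT without overlap at 10 min, overlapped it at 20 min and lay below it without overlap at 40 min. *Hist1h1d* took 66.9, 68.1 and 64.0 CPM in the WT libraries after 10 min of EU, 78.4, 74.3 and 79.5 after 20 min and 70.3, 67.5 and 76.7 after 40 min. Its labelled *Tet2*-KO libraries had 75.8, 81.7 and 70.0 after 10 min, 62.8, 68.0 and 59.7 after 20 min and 60.5, 60.5 and 60.0 after 40 min. In *Hist1h1d* the genotypes separated at each time, *Tet2*-KO being higher at 10 min and lower at 20 and 40 min.

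*Hist1h1b* took 49.7, 52.9 and 52.0 CPM in the WT libraries after 10 min of EU, 61.0, 55.9 and 59.2 after 20 min and 66.6, 72.3 and 63.7 after 40 min. The *Tet2*-KO label gave 50.1, 47.9 and 48.4 after 10 min, 45.8, 55.2 and 52.8 after 20 min and 50.3, 45.2 and 54.8 after 40 min. *Hist1h1b* overlapped between genotypes at 10 min and separated at 20 and 40 min, where each WT library was above each *Tet2*-KO library. *Hist1h1e* took 39.9, 35.2 and 41.4 CPM in the WT libraries after 10 min of EU, 53.8, 48.9 and 46.9 after 20 min and 51.1, 49.0 and 56.6 after 40 min. Under the *Tet2*-KO label it took 40.4, 45.9 and 44.6 after 10 min, 42.6, 50.01 and 44.5 after 20 min and 49.7, 45.1 and 46.3 after 40 min. The genotypes overlapped at 10, 20 and 40 min in *Hist1h1e*. *Hist1h1a* took 55.2, 53.8 and 56.7 CPM in the WT libraries after 10 min of EU, 63.3, 66.7 and 58.9 after 20 min and 56.9, 58.4 and 62.0 after 40 min. Where labelled *Tet2*-KO it had 50.5, 58.7 and 61.8 after 10 min, 47.5, 55.3 and 51.8 after 20 min and 51.2, 53.6 and 48.1 after 40 min. *Hist1h1a* overlapped at 10 min and was lower in each *Tet2*-KO library than in each WT library at 20 and 40 min.

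*H1f0* took 18.4, 18.9 and 21.03 CPM in the WT libraries after 10 min of EU, 17.2, 16.4 and 14.7 after 20 min and 10.9, 10.6 and 12.6 after 40 min. For the *Tet2*-KO label the values were 14.6, 17.9 and 17.4 after 10 min, 11.4, 12.4 and 11.9 after 20 min and 12.1, 11.0 and 10.9 after 40 min. In *H1f0* the genotypes did not overlap at 10 and 20 min, with WT higher, and overlapped at 40 min. *H1fx* took 6.64, 7.82 and 4.15 CPM in the WT libraries after 10 min of EU, 5.85, 5.07 and 5.22 after 20 min and 5.29, 6.07 and 5.68 after 40 min. Its *Tet2*-KO values were 4.05, 5.61 and 4.78 after 10 min, 3.6, 4.3 and 2.42 after 20 min and 4.06, 3.81 and 2.23 after 40 min. *H1fx* had the fewest reads of the members. Its genotypes overlapped at 10 min, and *Tet2*-KO was below WT without overlap at 20 and 40 min, with the lowest value of each of those groups in replicate 3.

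**Figure D3:**
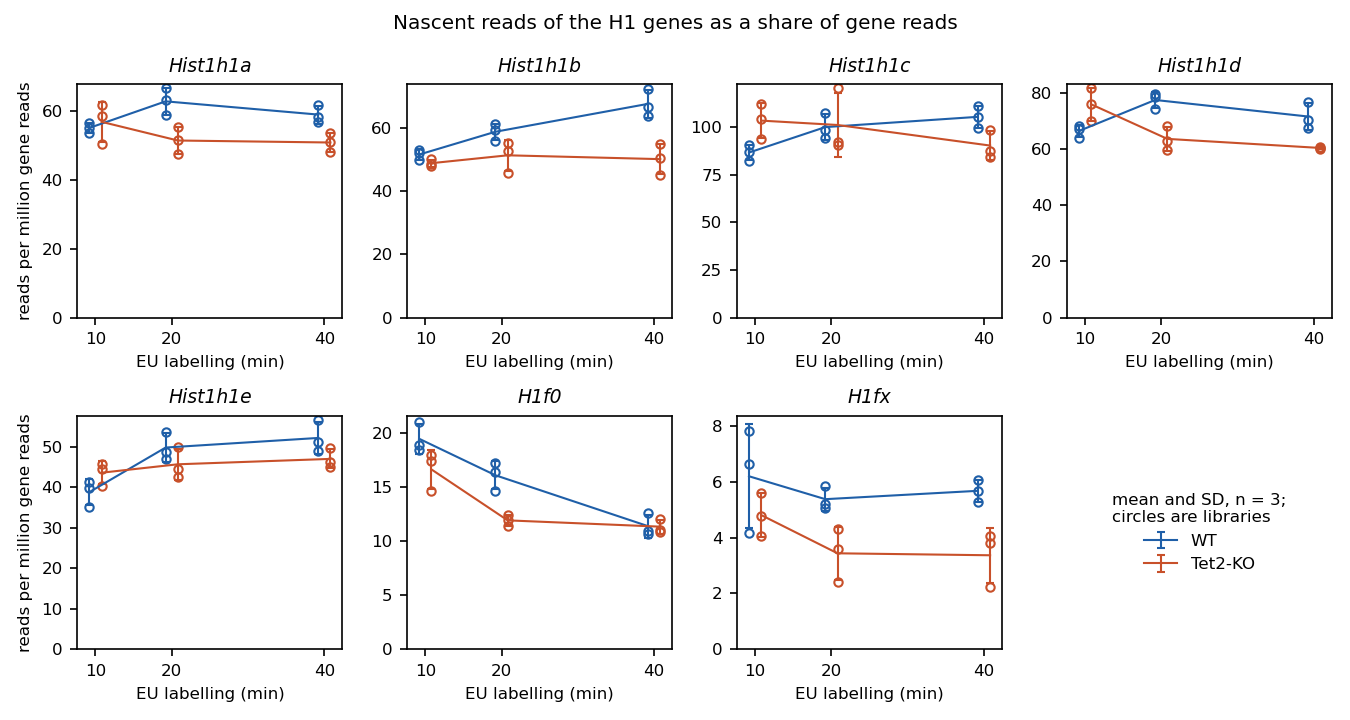
CPM of each H1 gene against minutes of EU labelling, for WT (blue) and the labelled *Tet2*-KO (orange), where circles are libraries and lines join the means with their SD (n = 3). *H1f0* falls from a mean of 19.5 at 10 min to 11.4 at 40 min in WT, while *Hist1h1b* in WT goes from 51.5 to 67.5.

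Averaged over EU times, 5 of the 7 members had a lower share with the *Tet2*-KO label by edgeR, and 32% of the genes tested were called lower. *H1fx* fell most, with a log2 fold change of -0.59 ± 0.12 (adjusted p = 0.000142). *Hist1h1b* was at -0.24 ± 0.038 (adjusted p = 2.40e-06), *H1f0* at -0.22 ± 0.060 (adjusted p = 0.00195), *Hist1h1a* at -0.15 ± 0.038 (adjusted p = 0.000839) and *Hist1h1d* at -0.11 ± 0.032 (adjusted p = 0.0033). *Hist1h1c* with 0.02 ± 0.043 (adjusted p = 0.776) and *Hist1h1e* with -0.04 ± 0.041 (adjusted p = 0.475) did not pass, with 95% intervals of -0.07 to 0.10 and -0.12 to 0.04. The members' median was -0.15 and that of all genes -0.04. On TMM scaling the call of *Hist1h1d* was lost (-0.07, adjusted p = 0.0565).

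At 10 min 2 members had a higher share (background 17.9%), *Hist1h1c* by 0.25 ± 0.075 (adjusted p = 0.00599) and *Hist1h1d* by 0.19 ± 0.055 (adjusted p = 0.00457), and 1 member was called without *Tet2*-KO replicate 2 or without *Tet2*-KO replicate 3 of this time. *Hist1h1e*, at 0.17 ± 0.073 (adjusted p = 0.0629), was called higher on TMM scaling (0.24), with DESeq2 (0.24) and without the filter on low counts. At 20 min 5 members were lower (background 20.7%), which were *Hist1h1a* with -0.29, *Hist1h1b* with -0.20, *Hist1h1d* with -0.28, *H1f0* with -0.43 and *H1fx* with -0.65. Without WT replicate 1 of that time 3 were lower. The call of *Hist1h1b* was also lost without *Tet2*-KO replicate 1 (-0.12, adjusted p = 0.183) and on TMM scaling, and that of *H1fx* without *Tet2*-KO replicate 3 (-0.44, adjusted p = 0.156). At 40 min 5 members were lower (background 19.6%), with *H1fx* at -0.75 ± 0.22 (adjusted p = 0.00676) and *Hist1h1b* at -0.43 ± 0.065 (adjusted p = 1.45e-06) farthest from 0, then *Hist1h1d* at -0.25, *Hist1h1c* at -0.22 and *Hist1h1a* at -0.21. DESeq2 did not call *Hist1h1c* there (adjusted p = 0.118). *H1f0* was at -0.01 ± 0.11 (adjusted p = 0.977). The 40 min count was 3 without WT replicate 3 and 2 without *Tet2*-KO replicate 3, where *H1fx* was at -0.53 (adjusted p = 0.0763), and *Hist1h1c* was not called without *Tet2*-KO replicate 2 (adjusted p = 0.0747).

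The change of the genotype difference from 10 to 40 min as a share was called lower for 4 of the 7 members, where 3.36% of the genes tested were called lower. *Hist1h1c* changed by -0.47 ± 0.11 (adjusted p = 0.00304), *Hist1h1d* by -0.44 ± 0.079 (adjusted p = 0.000287), *Hist1h1b* by -0.36 ± 0.093 (adjusted p = 0.0113) and *Hist1h1e* by -0.32 ± 0.10 (adjusted p = 0.044) on the log2 scale. *Hist1h1a* with -0.25 ± 0.092 (adjusted p = 0.0801), *H1fx* with -0.37 ± 0.30 (adjusted p = 0.521) and *H1f0* with 0.23 ± 0.15 (adjusted p = 0.386) did not pass, though *Hist1h1a* did on TMM scaling (-0.31), with DESeq2 (-0.32) and without the filter on low counts. The members' median change was -0.36 and that of all genes 0.06. The call of *Hist1h1e* was lost without any 1 of 9 libraries (WT 10 min replicate 2, WT 20 min replicate 2, WT 40 min replicates 1 and 3, *Tet2*-KO 10 min replicates 2 and 3, *Tet2*-KO 20 min replicate 3 and *Tet2*-KO 40 min replicates 2 and 3), at -0.33 to -0.25, and that of *Hist1h1b* without WT 40 min replicate 2 (-0.30) or *Tet2*-KO 40 min replicate 2 (-0.29), the latter leaving 2 members called. With 20 min in place of 10 min edgeR called 0 members lower, and 2 at an unadjusted p under 0.05, and the share of all genes called was not computed. The 10 and 40 min libraries enter both this contrast and those at single times, which are therefore not separate evidence.

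The third comparison followed the share of each member along labelling time within a genotype. In WT 3 members were higher at 40 than at 10 min (background 16.1%) and 1 was lower (background 29.5%). *Hist1h1e* rose by 0.43 ± 0.071 (adjusted p = 7.91e-06), *Hist1h1b* by 0.39 ± 0.064 (adjusted p = 6.11e-06) and *Hist1h1c* by 0.28 ± 0.074 (adjusted p = 0.00223), and *H1f0* fell, with -0.77 ± 0.10 (adjusted p = 1.32e-07). *Hist1h1a*, *Hist1h1d* and *H1fx* did not pass, with 0.10, 0.11 and -0.13, but *Hist1h1a* and *Hist1h1d* did on TMM scaling (0.20 and 0.21) and with DESeq2 (0.20 and 0.21), which gave 5 members higher. With the *Tet2*-KO label 3 members were lower at 40 than at 10 min (background 20%), namely *H1f0* with -0.55 ± 0.11 (adjusted p = 8.26e-05), *Hist1h1d* with -0.33 ± 0.056 (adjusted p = 1.57e-05) and *Hist1h1c* with -0.19 ± 0.075 (adjusted p = 0.0439). *Hist1h1b* with 0.03, *Hist1h1e* with 0.11, *Hist1h1a* with -0.16 and *H1fx* with -0.50 did not pass. The call of *Hist1h1c* was lost on TMM scaling (-0.15), with DESeq2 (-0.16) and without any 1 of 5 libraries (WT 40 min replicate 2 and replicates 2 and 3 of *Tet2*-KO at 10 and at 40 min), at -0.19 to -0.13. Over all genes the median was -0.14 in WT and -0.06 with the *Tet2*-KO label. With 40 set against 20 min, 1 member was higher in WT and edgeR called 0 lower with the *Tet2*-KO label (1 at an unadjusted p under 0.05), where *H1f0* was at -0.07. The share of all genes called was not computed for 40 against 20 min, so these counts have no background. *H1f0* was thus lower at 40 than at 10 min in both genotypes, and the edgeR test of the difference between them gave adjusted p = 0.386.

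As classes, the replication-dependent genes held a larger mean percent of the H1 reads at 20 than at 10 min in both genotypes, and a larger one still at 40 min in WT. In WT the replication-dependent genes held 92.3, 91.6 and 92.3% of H1 reads after 10 min, 94.0, 94.1 and 94.5% after 20 min and 95.5, 95.5 and 95.3% after 40 min. With the *Tet2*-KO label they held 94.3, 93.5 and 93.8% after 10 min, 95.1, 95.4 and 95.5% after 20 min and 95.1, 95.2 and 95.7% after 40 min. The *Tet2*-KO libraries were above WT without overlap at 10 and 20 min and overlapped it at 40 min. The means were 92.1 ± 0.397% (SD, n = 3) for WT and 93.9 ± 0.425% for *Tet2*-KO at 10 min, and 95.4 ± 0.115% and 95.3 ± 0.361% at 40 min. No test was made on these sums, because they pool members chosen with results known.

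In CPM, the replication-dependent sum went in mean from 298 ± 5.36 at 10 min through 349 ± 13.3 at 20 min to 356 ± 13.0 at 40 min for WT. For *Tet2*-KO its mean went from 329 ± 15.6 through 313 ± 31.7 to 299 ± 10.1, in the opposite direction. Its libraries spanned 310.5 to 338.2 at 10 min, 289.2 to 349.0 at 20 min and 292.0 to 310.3 at 40 min. Not all members shared this fall, since *Hist1h1b* and *Hist1h1e* had log2 fold changes of 0.03 and 0.11 from 10 to 40 min. The sum of *H1f0* and *H1fx* went from 25.7 ± 0.925 to 17.1 ± 1.07 for WT and from 21.4 ± 2.52 to 14.7 ± 1.52 for *Tet2*-KO, lower at 40 min in both. Per ERCC read the replication-dependent sum at 40 min was 6.3 times that at 10 min in WT and 3.79 times in *Tet2*-KO, and the polyadenylated sum 3.51 and 2.87 times. The ratio of *Tet2*-KO over WT in the replication-dependent sum per ERCC read was 2.25 at 10 min, 1.26 at 20 min and 1.35 at 40 min. The polyadenylated sum gave ratios of 1.7, 1.0 and 1.39.

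**Figure D4:**
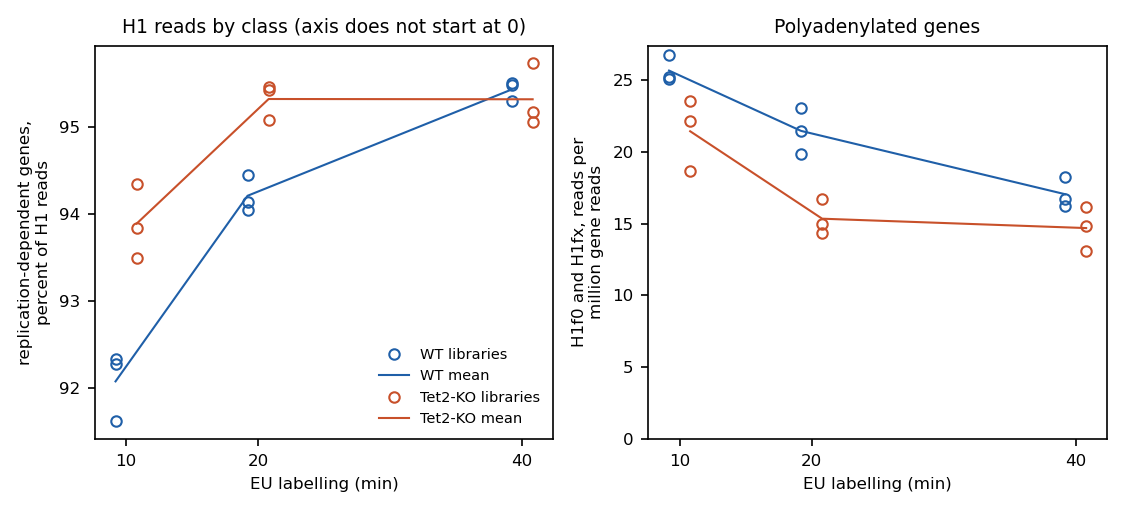
Reads of the 5 replication-dependent genes as a percent of all H1 reads (left, axis not from 0) and CPM of *H1f0* and *H1fx* together (right), against minutes of EU labelling, where circles are libraries and lines join the means of 3. At 10 min the percent lies at 94.3, 93.5 and 93.8 in the labelled *Tet2*-KO and lower, at 92.3, 91.6 and 92.3, in WT.

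Markers of other cells and of S phase were set beside these values. The 8 feeder fibroblast markers summed to 35.6 to 38.8 CPM in WT at 10 min, 17.8 to 19.5 at 20 min and 20.5 to 23.4 at 40 min. In WT 5 of the 5 that passed the filter were lower at 40 than at 10 min (background 29.5%). With the *Tet2*-KO label the sums were 15.8 to 18.5, 23.6 to 26.2 and 15.2 to 16.7. Among these markers *Lum* was at 0 in 17 of 18 libraries and *Dcn* in 6. The 5 primitive endoderm markers summed to 10.4 to 13.7 in WT at 10 min and 6.7 to 7.28 at 40 min. Of the 4 tested, 3 were lower (background 29.5%) and 1 was higher (background 16.1%). With the *Tet2*-KO label they summed to 9.43 to 10.7 and 5.49 to 8.14, with 1 lower (background 20%) and 1 higher (background 16.5%). *H1f0* fell beside both sums in WT, and their part in the result was not tested. In *Tet2*-KO *H1f0* fell too. There the fibroblast sums at 10 and 40 min overlapped, and the primitive endoderm sums were lower at 40 min without overlap. The part of either sum was not tested. The 16 S phase genes, among them *Pcna* and the Mcm genes of the replicative helicase, summed to 1542 to 1591 in WT and 1454 to 1477 in *Tet2*-KO at 10 min and to 1583 to 1629 and 1531 to 1548 at 40 min, lower in *Tet2*-KO without overlap at both times. At 20 min the sums were 1533 to 1590 in WT and 1521 to 1533 in *Tet2*-KO and overlapped. Of the 16, *Cdt1* was listed at 0 in all 18 libraries. The part of this sum in the H1 values was not tested.

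The replication-dependent core histones, which share stem-loop processing and S phase timing with the Hist1h1 genes, were measured in the same libraries, and 56 of 61 were tested. As a share of gene reads 20 of the 56 were higher (background 16.1%) and 3 lower (background 29.5%) at 40 than at 10 min in WT, with a median of 0.27 beside -0.14 over all genes. With the *Tet2*-KO label 1 was higher (background 16.5%) and 10 lower (background 20%), with a median of -0.09 beside -0.06. Averaged over EU times, 50 of the 56 were higher and 3 lower per ERCC read in *Tet2*-KO, where 80.5% of all genes were called higher and 4.15% lower. As a share 10 were higher and 15 lower, where 24.6% of all genes were called higher and 32% lower. The farthest as a share were the H4 genes *Hist1h4j* at 0.86 ± 0.11 (adjusted p = 1.66e-08) and *Hist1h4a* at 0.63 ± 0.11 (adjusted p = 1.54e-05), and the H2B genes *Hist1h2bn* at -1.08 ± 0.053 (adjusted p = 2.37e-18) and *Hist1h2bm* at -0.98 ± 0.11 (adjusted p = 4.47e-09). The change of the genotype difference from 10 to 40 min as a share was lower in 10 of the 56 (background 3.36%), with a median of -0.36, beside -0.36 for the H1 members and 0.06 for all genes. Core histone genes of the same family are close in sequence, and the counting listed reads aligned to more than 1 place apart from the genes. Counts of single core histone genes are therefore uncertain.

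The other gene lists were also set against these shares of all genes, averaged over EU times in *Tet2*-KO against WT. Of the 7 polyadenylated replacement core histones, 6 were higher and 0 lower per ERCC read (median 0.50), and 1 was higher and 5 lower as a share (median -0.24). The values of single genes that follow are log2 fold changes of the share. *H2afx*, whose protein marks DNA breaks when phosphorylated, was at 0.26 ± 0.056 (adjusted p = 0.000155), and *H2afj* and *H2afz* were at -0.63 ± 0.041 (adjusted p = 6.10e-15) and -0.36 ± 0.028 (adjusted p = 5.29e-13). The genotype difference in share of the 7 changed from 10 to 40 min by a median of -0.07, with 1 lower. Of 17 genes of histone transcription and 3′ end formation, 17 were higher per ERCC read (median 0.65), and 1 was higher and 8 lower as a share (median -0.09). The cleavage factor gene *Cstf2* was at 0.09 ± 0.034 (adjusted p = 0.02), *Lsm11* of the U7 snRNP at -0.33 ± 0.073 (adjusted p = 0.000242) and *Lsm1*, which acts in mRNA decay, at -0.31 ± 0.030 (adjusted p = 7.89e-11). Among 8 linker histone chaperones and competitors, 8 were higher per ERCC read (median 0.75), and 3 were higher and 2 lower as a share (median 0.02). The chaperone genes *Nap1l1* and *Nasp* were at 0.18 ± 0.013 (adjusted p = 2.03e-14) and 0.09 ± 0.011 (adjusted p = 1.73e-08), and *Nap1l4* and the nucleosome-binding *Hmgn2* at -0.07 ± 0.020 (adjusted p = 0.00176) and -0.26 ± 0.051 (adjusted p = 6.79e-05). Of 15 tested S phase genes 15 were higher per ERCC read (median 0.67), and 4 were higher and 7 lower as a share (median -0.06), with *Mcm7* at 0.20 ± 0.023 (adjusted p = 2.70e-09) and *Cdc6* at 0.16 ± 0.029 (adjusted p = 1.82e-05) and, at the other end, *Mcm2* at -0.35 ± 0.018 (adjusted p = 1.91e-17) and *Rrm2* at -0.30 ± 0.040 (adjusted p = 1.25e-07).

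**Figure D5:**
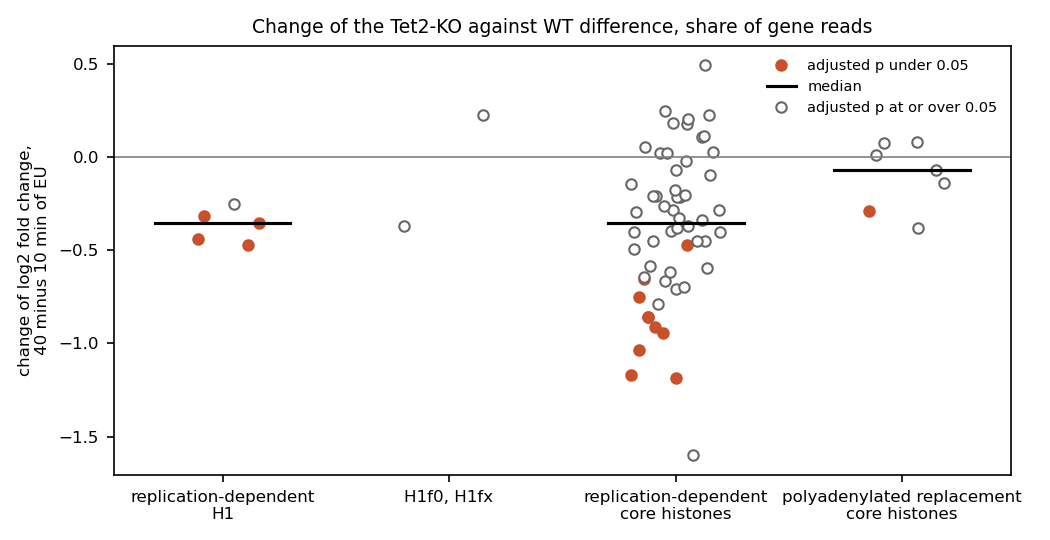
Change of the log2 fold change of the labelled *Tet2*-KO over WT, 40 min minus 10 min of EU, as a share of gene reads, with a circle for each gene tested, filled where edgeR's adjusted p was under 0.05, and a line at the median of sets of more than 2 genes. The 5 replication-dependent H1 genes lie between -0.47 and -0.25, *H1f0* at 0.23 and *H1fx* at -0.37, and the replication-dependent core histones spread around a median of -0.36.

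The other linker histone genes had few reads in mES cells. The germ cell gene *H1foo* had 11 reads over the 18 libraries, and the spermatid genes *H1fnt* and *Hils1* had 2 and 12. The testis gene *Hist1h1t*, which lies among the Hist1h1 genes, had 21 to 102 reads per library and was the 1 gene of the 4 that passed the filter. Its share was lower at 40 than at 10 min in WT, with -1.56 ± 0.26 (adjusted p = 8.11e-06), and in *Tet2*-KO, with -1.45 ± 0.27 (adjusted p = 4.73e-05). Averaged over EU times it was higher in *Tet2*-KO per ERCC read, with 0.49 ± 0.17 (adjusted p = 0.00449), and as a share it was at -0.24 ± 0.15 (adjusted p = 0.191) and did not pass.

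The 7 members varied in part separately across libraries. Over the 18 libraries, as a description of points that share depth and groups, Pearson's r of log2 CPM with a prior of 0.5 was 0.27 to 0.69 between pairs of replication-dependent genes. *H1f0* had r of -0.44 with *Hist1h1e*, 0.43 with *Hist1h1a* and 0.49 with *H1fx*. The most similar of 11006 well-read protein-coding genes (mean log2 CPM of 2 or more) were *Tmem129* (r = 0.84) and *Birc5* (r = 0.80) for *Hist1h1a*, *Myh9* (r = 0.91) and *Chfr* (r = 0.90) for *Hist1h1b* and *Hist1h3e* (r = 0.84) and *Mink1* (r = 0.75) for *Hist1h1c*. They were *Zfp819* (r = 0.88) and *Zfhx3* (r = 0.78) for *Hist1h1d*, *Hist1h2ag* (r = 0.84) and *Tmem8* (r = 0.83) for *Hist1h1e*, *Zfyve28* (r = 0.94) and *Adgrl2* (r = 0.94) for *H1f0* and *Snrnp27* (r = 0.85) and *Vangl2* (r = 0.84) for *H1fx*. The core histone genes *Hist1h3e* and *Hist1h2ag* were thus first for *Hist1h1c* and *Hist1h1e*.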

How the data were processed

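Nascent RNA of 18 libraries (WT and *Tet2*-KO mES cells, 3 EU times, 3 dishes each) was analysed. The authors trimmed reads with Trimmomatic 0.39, aligned them to mm10 with GENCODE M19 and ERCC sequences by HISAT2 2.2.1, counted them per gene with HTSeq 0.12.4 and deposited unnormalized counts. Feature, strand and overlap settings are not given in the sources used here. Of the counted or unassigned reads in the HTSeq output, 20.9% to 24.9% per library were not on a gene and stayed out of all totals. ERCC concentrations were not used.

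Symbols and positions came from GENCODE M21 (54409 of 54446 identifiers), and sequences from RefSeq and the GENCODE transcripts. Counts were fitted with edgeR 4.0.16 in R 4.3.3 by glmQLFit and glmQLFTest, with 1 group per genotype and EU time, over 19910 genes kept by filterByExpr (minimum count 10), with Benjamini-Hochberg adjustment at 0.05. Library sizes were ERCC reads (per ERCC read) or gene reads (share). SEs are the absolute log2 fold change over the root of F, and 95% intervals are 1.96 SE. The fits were tested on simulated data. Replicate pairs differed beyond counting noise (chi-square per gene of 1.66 or more).

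The 7 members and the gene lists were chosen with earlier results of these data known. Named genes are all members, from each list at most 2 in each direction farthest from 0 in the average share contrast among those past the threshold, and the 2 protein-coding genes most correlated with each member. Alternatives were other ERCC sets, TMM, DESeq2 1.42.0, protein-coding totals, filters, a replicate block, other slopes, and each library left out.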

Additional observations from a re-analysis of the deposited data

Results flagged for a closer look

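The change of the genotype difference from 10 to 40 min of EU was past the threshold in the edgeR fit over all genes, so that the effect of the labelled genotype differed between the shortest and the longest labelling. Per ERCC read this held for the 5 replication-dependent genes (background 19.3%, median of all genes -0.29). Their changes were -0.61 for *Hist1h1a*, -0.70 for *Hist1h1b*, -0.82 for *Hist1h1c*, -0.78 for *Hist1h1d* and -0.66 for *Hist1h1e* on the log2 scale. As a share of gene reads it held for 4 (background 3.36%, median of all genes 0.06). Their share changed by -0.36 for *Hist1h1b*, -0.47 for *Hist1h1c*, -0.44 for *Hist1h1d* and -0.32 for *Hist1h1e*. Leaving out each library in turn gave 2 to 5 members lower as a share. With the next EU time in place of 10 min, an alternative chosen after the data were seen, edgeR called 0 members lower on either scale. At an unadjusted p under 0.05, 2 were lower there as a share and 0 per ERCC read. Groups of 3 libraries are too small for a check of outlying samples.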

How the results depend on the processing

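On TMM scaling in place of ERCC reads, which removes the shared rise, the averaged genotype difference had 0 members higher by edgeR (0 at an unadjusted p under 0.05, also at 20 and 40 min) and 4 lower, which were *Hist1h1a* (-0.11), *Hist1h1b* (-0.20), *H1f0* (-0.18) and *H1fx* (-0.55), with *Hist1h1d* turned but not called (-0.072). At 10 min it had 3 higher, *Hist1h1c*, *Hist1h1d* and *Hist1h1e*, and *Hist1h1b* (-0.0077), *H1f0* (-0.16) and *H1fx* (-0.30) turned without a call. At 20 min it had 0 higher and 4 lower, which were *Hist1h1a* (-0.25), *Hist1h1d* (-0.25), *H1f0* (-0.39) and *H1fx* (-0.61), and *Hist1h1b* (-0.16) and *Hist1h1e* (-0.087) turned without a call. At 40 min it had 0 higher and 5 lower, which were *Hist1h1a* (-0.20), *Hist1h1b* (-0.42), *Hist1h1c* (-0.21), *Hist1h1d* (-0.23) and *H1fx* (-0.73), and *Hist1h1e* (-0.14) turned without a call. For share in WT from 10 to 40 min, TMM and DESeq2 each called 5 members higher. For share at 10 min, protein-coding totals or a minimum of 10 reads in every library each called 1 member lower, which was *H1f0* (-0.24 and -0.23). With 20 min in place of 10 min, chosen after the data were seen, the change of the genotype difference per ERCC read had 1 member higher, *H1f0* (0.63), and 0 lower (0 unadjusted), and *Hist1h1a* (0.27), *Hist1h1d* (0.24) and *Hist1h1e* (0.18) turned without a call. As a share it had 0 lower (2 at an unadjusted p under 0.05), and *Hist1h1d* turned without a call (0.040), and from 20 to 40 min WT had 1 member higher and *Tet2*-KO 0 lower (1 unadjusted). The cause of these shifts was not tested. For the alternative fits and contrasts of this section, and for those given with the results above, the share of all genes called was not computed. Their counts of members have no background of their own and are set only beside the main counts.

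The percent of H1 reads on replication-dependent genes, in WT at 10, 20 and 40 min and then in *Tet2*-KO, was 89.2, 92.1, 93.6, 91.3, 93.2 and 93.4 without *Hist1h1c*, 98.0, 98.5, 98.4, 98.6, 98.9 and 98.9 with *H1fx* as the sole polyadenylated gene and 93.9, 95.6, 96.9, 95.2, 96.3 and 96.3 with *H1f0*. Rate ratios from 10 and 20 min were 0.776 for *Hist1h1a*, 0.712 for *Hist1h1d*, 0.955 for *Hist1h1e*, 0.596 for *H1f0* and 0.506 for *H1fx*. From 20 and 40 min they were 1.81 for *Hist1h1a*, 1.73 for *Hist1h1d*, 1.68 for *Hist1h1e* and 4.74 for *H1f0*. Through the origin they were 1.22 for *Hist1h1b* and 1.42 for *Hist1h1c*. Per kilobase up to the stem-loop, levels were 136 for *Hist1h1c*, 89.7 for *Hist1h1d* and 59.5 for *Hist1h1e*.

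With each library left out in turn, members called ranged from 1 to 5 higher per ERCC read at 20 min, and as a share from 1 to 3 higher and 0 to 1 lower at 10 min, 3 to 5 lower at 20 min, 2 to 5 lower at 40 min and 2 to 5 lower for the change. The rate ratio ranged from 1.01 to 1.21 for *Hist1h1b* and 0.627 to 1.04 for *H1fx*.

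Replicate numbers did not pair the libraries: same-numbered libraries had a median correlation of deviations of -0.008 (-0.24 to 0.21), and 7 of 18 correlated best with their own number. With the replicate block the averaged difference per ERCC read again had 6 members higher, the change per ERCC read had 6 lower, with *H1fx* at -0.76, and *Tet2*-KO from 10 to 40 min as a share had 4 lower, with *H1fx* at -0.52. DESeq2 with ERCC size factors and the ERCC transcripts with 100 or more reads kept each count of members called per ERCC read within 1.5 times. *H1fx*, at 40 to 174 reads per library, sets the widest intervals of the members.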
